A study of Arabidopsis thaliana with 8 samples.

Results

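The comparison described here asks what loss of RDR6 does to the transcriptome of Arabidopsis thaliana seedlings that already lack FRY1. It sets the double mutant fry1-6 rdr6-11 against its parent line fry1-6, with 2 RNA-seq libraries of each, chosen by their titles as 4 of the 8 libraries of the study. Of 37361 genes in the deposited count tables, 37065 are nuclear, and 22606 of these passed the filter on low counts and were tested. Organelle genes are not among the results, since the chloroplast share of the counts differs strongly between the libraries compared. All lines are in the Col-0 background. fry1-6 rdr6-11 carries a T-DNA insertion in FRY1 (also SAL1, AT5G63980) and a chemically induced point mutation in RDR6 (AT3G49500). fry1-6 carries the same insertion, so loss of FRY1 is shared by both sides of the comparison. The other libraries of the study, fry1-6 rdr1-1, which carries an rdr1-1 allele of RDR1 (AT1G14790) in place of rdr6-11, and wild type (WT), with 2 libraries each, entered the fit and serve as side comparisons. RNA came from seedlings of 12 days, whose stage the labels also give as 2 weeks, and no treatment is named. The labels give growth at 23 °C with 16 h of light, the paper's methods give other settings, and the hour of harvest and any batch are not given in the sources used here. The labels' genotype field names both fry1-6 rdr1-1 libraries as the rdr6 double mutant, while their titles name rdr1, which was followed here. Nothing in the labels says that the replicates were separate plantings, so the p-values measure the spread between these libraries, which may be technical.

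RDR6 is an RNA-dependent RNA polymerase. With the protein SGS3 it copies a cut transcript into double-stranded RNA, which DCL4 and DCL2 cut into short interfering RNAs that are phased from the miRNA cut site. The best-known templates are the TAS transcripts, noncoding RNAs that miR173, miR390 or miR828 cut, and their trans-acting siRNAs (tasiRNAs) in turn repress auxin response factors, pentatricopeptide repeat genes and other targets. FRY1 is a phosphatase that removes 3′-phosphoadenosine 5′-phosphate, a by-product of sulfate metabolism that inhibits the XRN exoribonucleases. Uncapped RNA fragments persist where XRN activity is low, and such fragments can enter the RDR6 pathway. The SAL1 phosphatase is also known for its part in drought, light and sulfur responses.

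The libraries held between 15069329 and 26285519 counts. They had 20687446 and 17802234 in fry1-6 rdr6-11, against 15069329 and 15520665 in fry1-6. A level of 3 counts came to between 0.121 and 0.215 CPM (counts scaled to a common library size). CPM values below are normalized by the trimmed mean of M-values (TMM), with factors of 1.14 and 1.22 in fry1-6 rdr6-11, against 0.99 and 0.99 in fry1-6. Of all counts, 2.47% and 2.29% came from the chloroplast in fry1-6 rdr6-11, against 0.173% and 0.0509% in fry1-6. The share was 2.80% and 2.40% in fry1-6 rdr1-1 and 0.161% and 0.0342% in WT, so both double mutants stood apart from both other genotypes. Wilson intervals of 95% around these shares were at most 0.0139 percentage points wide and cover counting error only. Leaf markers such as RBCS1A and LHCB1.3 summed to 30220 and 25850 CPM in fry1-6 rdr6-11, against 42780 and 33320 CPM in fry1-6, and root markers to 80.7 and 72.2 CPM, against 72.7 and 40.6 CPM. None of the 12 leaf and 10 tested root markers was called in either direction. At an unadjusted p under 0.05, 1 leaf and 1 root marker were higher and 3 leaf markers lower, and DESeq2 called 3 leaf markers lower and no root marker. All 9 seed storage genes listed were under the filter. The mutated genes were not called either. RDR6 had 12.1 and 20.7 CPM in fry1-6 rdr6-11, against 21.5 and 17.3 CPM in fry1-6, which checks nothing, since a point mutation need not lower its transcript. The count for FRY1 does not check fry1-6 either, since a T-DNA insertion can leave transcript on one side and both groups carry it. FRY1 had 80.6 and 151 CPM in fry1-6 rdr6-11, against 101 and 93.6 CPM in fry1-6. In WT it had 49.1 and 27.5 CPM, so the count was not lower in the mutants.

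Loss of RDR6 in fry1-6 went with lower transcript levels more often than with higher ones. Among the 22606 nuclear genes, 664 were lower (2.94%) and 353 higher (1.56%) in fry1-6 rdr6-11 than in fry1-6 at a Benjamini-Hochberg adjusted p under 0.05 in edgeR's quasi-likelihood test. The median log2 fold change of those lower was −1.39 and of those higher 1.08, against 0.02 over all nuclear genes tested. At an unadjusted p under 0.05, 3000 of all 22606 were lower and 2635 higher, and DESeq2 called 1785 lower and 897 higher. List counts given below at an unadjusted p or by DESeq2 are to be read beside these, not beside 2.94%. Of the genes called, 505 were at least 2-fold lower and 204 at least 2-fold higher, and 74 were at least 8-fold lower and 14 at least 8-fold higher. The balance between directions rests on the scaling: with total counts in place of TMM the median of all genes moved to 0.27 and the calls to 491 lower and 1441 higher, so that 74.6% of calls were increases, against 34.7% with TMM. The calls also rest on having both libraries of fry1-6 rdr6-11. Without replicate 1 of that genotype 4 genes were called lower and 0 higher, and without replicate 2, 3 and 0, where 2107 and 1324, or 1940 and 1224, had an unadjusted p under 0.05. Leaving out fry1-6 replicate 1 left 40 lower and 1 higher, and leaving out fry1-6 replicate 2 left 73 and 7. Only PRR7, LZF1 and CIPK20 were called in all 4 of these fits. Every other called gene named below lost its call without replicate 1 or without replicate 2 of fry1-6 rdr6-11.

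The same libraries of fry1-6 rdr6-11 were set against fry1-6 rdr1-1, which has a like share of chloroplast counts and also lacks FRY1. There 228 nuclear genes were lower (1.01%) and 23 higher (0.102%). These calls need all 4 libraries: without fry1-6 rdr1-1 replicate 2, 27 were lower and 1 higher, and without any of the other 3 libraries 0 were called in either direction, where between 1084 and 1890 were lower and between 536 and 981 higher at an unadjusted p under 0.05. With total counts in place of TMM, 100 were lower and 41 higher. The 2 comparisons share the fry1-6 rdr6-11 libraries, so their agreement is no independent evidence, and values from both are given side by side below.

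The transcripts that RDR6 is best known for copying were not called in either direction. The triggers that cut the TAS precursors are shown because they define which precursor enters which branch of the pathway. Their mature sequences, from RefSeq on TAIR10.1, have the seed (bases 2 to 8) in capitals.
ath-miR173-5p (TAS1 and TAS2 precursors, chr3:8236161-8236182, plus strand): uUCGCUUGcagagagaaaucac
ath-miR390a-5p (TAS3 precursors, chr2:16061971-16061991, plus strand): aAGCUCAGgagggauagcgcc
ath-miR828 (TAS4 precursor, chr4:13847020-13847041, plus strand): uCUUGCUUaaaugaguauucca
The 3 seeds differ, and miR390b-5p has the same mature sequence as miR390a-5p.

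Of the 8 TAS loci listed, 5 passed the filter and none was called in either direction, where 1 was higher at an unadjusted p under 0.05 and 1 by DESeq2. TAS3 (AT3G17185), whose tasiRNAs target ARF2, ARF3 and ARF4, came closest. It had 13.4 and 10.5 CPM in fry1-6 rdr6-11, against 7.15 and 6.76 CPM in fry1-6. The groups did not overlap, with a log2 fold change of 0.78 ± 0.19 (SE) and an edgeR adjusted p of 0.067. Of all nuclear genes tested, 31.4% were higher and 29.3% lower without overlap between the genotypes. TAS3 had 10.3 and 10.5 CPM in fry1-6 rdr1-1, near the lower library of fry1-6 rdr6-11. TAS2 (AT2G39681), a source of tasiRNAs against pentatricopeptide repeat genes, had 11.0 and 26.7 CPM in fry1-6 rdr6-11, against 10.2 and 12.0 CPM in fry1-6. TAS1C (AT2G39675), the best known of the TAS1 precursors, had 6.799 and 17.38 CPM in fry1-6 rdr6-11, against 6.82 and 7.67 CPM in fry1-6. In both precursors the second library of fry1-6 rdr6-11 was high and the first lay with fry1-6. The same uneven pair was seen in fry1-6 rdr1-1, where TAS1C had 4.91 and 22.9 CPM. TAS1A had 5.23 and 8.46 CPM in fry1-6 rdr6-11, against 4.74 and 3.83 CPM in fry1-6, and TAS1B had 4.16 and 5.29 CPM, against 3.54 and 6.56 CPM. The 5 precursors summed to 40.6 and 68.3 CPM in fry1-6 rdr6-11, against 32.4 and 36.8 CPM in fry1-6. The TAS3b, TASIR-ARF and AT3G25795 (TAS4) loci were at or near 0 and could not be tested.

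**Figure D1:**
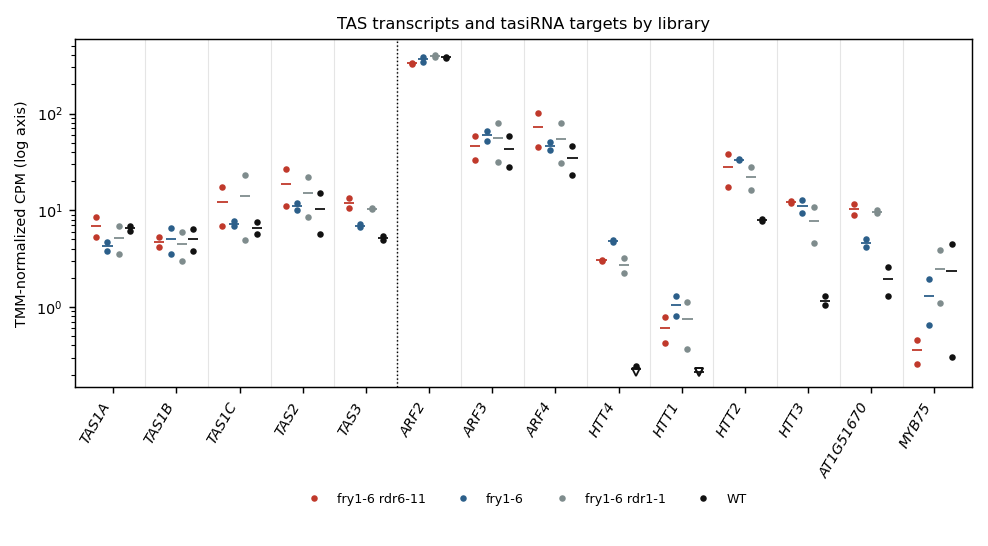
Levels of the 5 tested TAS precursors and of 9 tasiRNA targets in each library, in TMM-normalized CPM on a log axis, where dots stand for libraries, dashes for the mean of 2 libraries and open triangles for values below that of 3 counts in the shallowest library (0.215 CPM). The TAS3 dots of fry1-6 rdr6-11, at 13.4 and 10.5 CPM, lie above those of fry1-6, at 7.15 and 6.76 CPM, while the dots of TAS1B overlap.

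Of 9 tested targets of the tasiRNAs 0 were called in either direction, with log2 fold changes between −1.84 and 1.15, of which 6 were negative, and a median of −0.27, where 1 was higher at an unadjusted p under 0.05 and 1 by DESeq2. ARF4 (AT5G60450), an auxin response factor that promotes abaxial leaf identity, had 45.4 and 100.03 CPM in fry1-6 rdr6-11, against 51.1 and 42.2 CPM in fry1-6. ARF3 (AT2G33860), which acts with ARF4, had 32.8 and 58.7 CPM, against 66.4 and 52.2 CPM. ARF2 (AT5G62000), a repressor of auxin-responsive growth, had 333 and 325 CPM, against 345 and 384 CPM. The libraries of fry1-6 rdr6-11 differed about as much from each other in ARF3 and ARF4 as from fry1-6. MYB75 (AT1G56650), an activator of anthocyanin synthesis and the main TAS4 target, was near the floor in fry1-6 rdr6-11 at 0.255 and 0.46 CPM, against 1.94 and 0.65 CPM in fry1-6, with an edgeR adjusted p of 0.419. Of 24 tested pentatricopeptide repeat genes of the class that these siRNAs target, 0 were called in either direction, 2 were higher at an unadjusted p under 0.05 and DESeq2 called 1 of the class higher. Their median log2 fold change was 0.19. Among the auxin receptors, which miR393 and RDR6-dependent siRNAs target, AFB2 (AT3G26810) was higher. It had 83.9 and 77.9 CPM in fry1-6 rdr6-11, against 36.8 and 39.7 CPM in fry1-6, a log2 fold change of 1.08 ± 0.16 (SE, edgeR adjusted p = 0.0249). AFB2 had 54.1 and 45.0 CPM in fry1-6 rdr1-1, below fry1-6 rdr6-11 but with an edgeR adjusted p of 0.112. TIR1 (AT3G62980), the founding auxin receptor, had 173.3 and 175 CPM in fry1-6 rdr6-11, against 134 and 107 CPM in fry1-6, and was not called (edgeR adjusted p = 0.186).

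Of 24 tested genes of the small RNA machinery 0 were called in either direction, where 4 were higher and 3 lower at an unadjusted p under 0.05, and DESeq2 called 2 higher and 2 lower. SGS3 (AT5G23570), the RNA-binding partner of RDR6, had 16.8 and 18.7 CPM in fry1-6 rdr6-11, against 33.3 and 28.0 CPM in fry1-6, with a log2 fold change of −0.79 ± 0.18 (SE, edgeR adjusted p = 0.0597). AGO3 (AT1G31290), an Argonaute close in sequence to AGO2, had 2.42 and 1.65 CPM, against 8.15 and 8.25 CPM (edgeR adjusted p = 0.0661). DRB4 (AT3G62800), the double-stranded RNA-binding partner of DCL4, had 13.8 and 14.2 CPM, against 9.16 and 6.95 CPM (edgeR adjusted p = 0.0761). The libraries did not overlap in 18 of the 24 genes, 7 of them higher and 11 lower, and the adjusted p of each missed the threshold. Such a lack of overlap was common, with 31.4% of all nuclear genes tested higher and 29.3% lower. AGO7 (AT1G69440), the Argonaute that carries miR390, had 6.37 and 8.87 CPM in fry1-6 rdr6-11, against 3.88 and 2.21 CPM in fry1-6, and 7.96 and 7.19 CPM in fry1-6 rdr1-1. DCL4 (AT5G20320) had 20.7 and 25.6 CPM, against 33.7 and 28.3 CPM in fry1-6 and 34.7 and 27.3 CPM in fry1-6 rdr1-1. RDR1 had 38.9 and 20.9 CPM in fry1-6 rdr6-11, against 17.8 and 12.5 CPM in fry1-6 (edgeR adjusted p = 0.231). In fry1-6 rdr1-1 it had 28.8 and 19.5 CPM, and in WT 19.7 and 9.38 CPM. The RDR1 count thus does not bear out the titles of the fry1-6 rdr1-1 libraries, though an insertion can leave transcript. The lists of RNA decay factors (22 tested) and ribosome biogenesis factors (19 tested) also had 0 calls in either direction, with medians of −0.04 and 0.23. At an unadjusted p under 0.05, 2 decay factors were lower and none higher, 3 biogenesis factors were higher and 1 lower, and DESeq2 called none of the decay factors and 1 biogenesis factor, which was higher.

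Genes of the circadian clock were lower in fry1-6 rdr6-11. Transcripts of the clock, and of the light-harvesting antenna described below, rise and fall over the day, so their levels depend on the hour of harvest. That hour is not given in the sources used here, so a difference in hour between genotypes and a difference of genotype cannot be told apart. The plant clock is a set of transcription factors that repress or activate each other in sequence over the day: the morning MYB factors CCA1 and LHY, the pseudo-response regulators PRR9, PRR7, PRR5 and TOC1, the coactivators LNK1 and LNK2, and the evening complex of ELF3, ELF4 and LUX, with outputs through GI, FKF1 and CDF1. Of 22 clock genes tested, 9 were lower (40.9%, against 2.94% of all nuclear genes) and 0 higher, also at an unadjusted p under 0.05 (15 lower, 0 higher) and by DESeq2 (13 lower, 0 higher). Their median log2 fold change was −1.94, and 21 of the 22 were negative. Without either library of fry1-6 rdr6-11 in turn, 1 of them was called, and 3 and 4 without fry1-6 replicate 1 and 2.

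Among the pseudo-response regulators, PRR7 (AT5G02810) had 27.9 and 17.9 CPM in fry1-6 rdr6-11, against 326 and 280.2 CPM in fry1-6, 13.2-fold lower, with a log2 fold change of −3.73 ± 0.27 (SE, edgeR adjusted p = 0.00331). PRR5 (AT5G24470) had 12.6 and 9.88 CPM, against 241 and 168 CPM, 18.196-fold lower (log2 −4.19 ± 0.34, edgeR adjusted p = 0.00475). Both PRR7 and PRR5 repress CCA1 and LHY through the day. PRR9 (AT2G46790), the earliest of them, had only 4 and 7 counts in fry1-6 rdr6-11, at 0.170 and 0.322 CPM, against 11.4 and 4.68 CPM in fry1-6 (edgeR adjusted p = 0.0415). The coactivator LNK2 (AT3G54500) had 4.29 and 3.22 CPM, against 113 and 89.2 CPM, 26.8-fold lower (log2 −4.74 ± 0.41, edgeR adjusted p = 0.00586). LNK1 (AT5G64170) had 2.63 and 1.33 CPM, against 70.6 and 39.8 CPM, 27.6-fold lower (edgeR adjusted p = 0.0196). LNK1 and LNK2 recruit transcription to clock genes with the MYB factor RVE8. Among the outputs, GI (AT1G22770), which binds the blue-light receptor FKF1 and promotes flowering, had 13.1 and 8.60 CPM, against 273 and 175 CPM, 20.6-fold lower (log2 −4.36 ± 0.55, edgeR adjusted p = 0.0163). FKF1 (AT1G68050) had 15.7 and 21.5 CPM, against 149.96 and 112 CPM (edgeR adjusted p = 0.0499). CDF1 (AT5G62430), a repressor of flowering that GI and FKF1 remove, had 0.467 and 0.644 CPM, against 11.6 and 5.85 CPM (edgeR adjusted p = 0.0263). In none of these genes did the 2 genotypes overlap.

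Of the evening complex and the morning factors CCA1 and LHY, LUX alone was called. LUX (AT3G46640), the DNA-binding member of the evening complex, had 33.4 and 31.5 CPM in fry1-6 rdr6-11, against 98.6 and 149.8 CPM in fry1-6, 3.83-fold lower (edgeR adjusted p = 0.0474). ELF4 (AT2G40080) had 17.0 and 15.9 CPM, against 95.4 and 122 CPM, and missed the threshold (edgeR adjusted p = 0.0835). TOC1 (AT5G61380), the evening repressor of CCA1, had 101 and 88.6 CPM, against 209 and 263 CPM (edgeR adjusted p = 0.143). Its groups did not overlap, but the spread between libraries of the other genotypes was wide. CCA1 (AT2G46830) had 13.9 and 13.1 CPM in fry1-6 rdr6-11, against 60.01 and 43.8 CPM in fry1-6 (edgeR adjusted p = 0.0516), and 75.2 and 32.2 CPM in fry1-6 rdr1-1, while WT had 2.07 and 1.23 CPM. LHY (AT1G01060) was low in both genotypes, with 3.27 and 3.54 CPM, against 4.34 and 3.25 CPM. BOA (AT5G59570), a close relative of LUX, was the only clock gene with a positive value, 19.9 and 21.1 CPM against 6.68 and 19.1 CPM, and its edgeR adjusted p was 0.626.

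Against fry1-6 rdr1-1, 6 of the 22 clock genes were lower in fry1-6 rdr6-11 and 0 higher, where 1.01% of all nuclear genes were lower and 0.102% higher, with a median log2 fold change of −1.57. They were PRR7, PRR5, LNK1, LNK2, GI and CDF1. PRR7 had 236 and 219 CPM in fry1-6 rdr1-1 (log2 −3.31, edgeR adjusted p = 0.0156), PRR5 had 118 and 135 CPM (log2 −3.49, edgeR adjusted p = 0.0168), and GI had 122 and 221 CPM (log2 −3.98, edgeR adjusted p = 0.0312). Of the 9 clock genes lower than in fry1-6, 8 were also lower in both libraries of fry1-6 rdr6-11 than in both WT libraries. The exception was PRR9, with 1.65 and 0.184 CPM in WT. In WT, PRR7 had 227 and 193 CPM, PRR5 had 156 and 95.4 CPM, and GI had 317 and 141 CPM. The fry1-6 rdr6-11 libraries thus had the lowest values of all 8 for these 3 genes. FKF1 had 24.8 and 86.8 CPM in fry1-6 rdr1-1, and ELF4 had 10.6 and 61.0 CPM, where the first library of that genotype lay near fry1-6 rdr6-11 and the second near fry1-6.

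**Figure D2:**
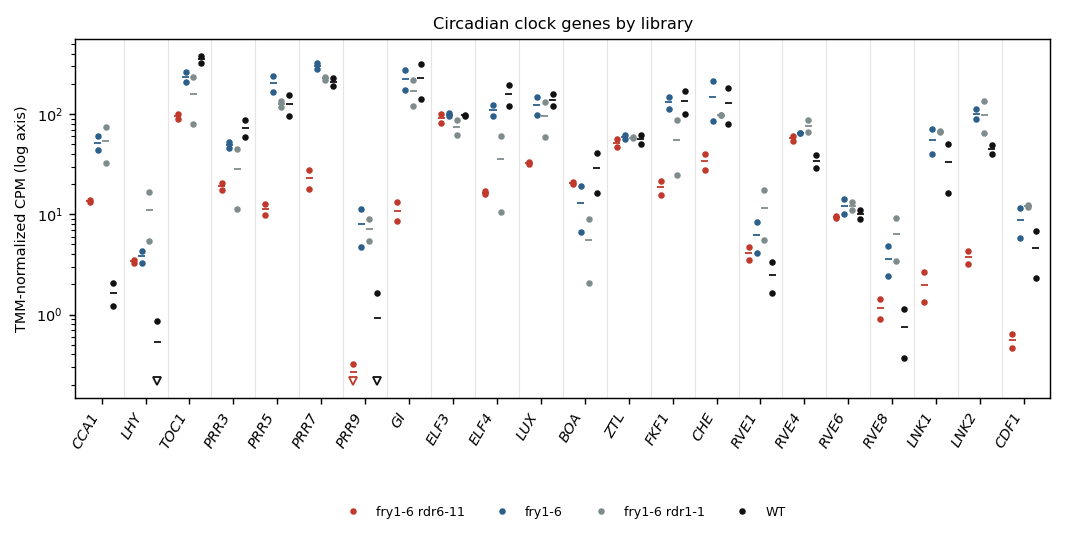
Levels of clock genes in each library, in TMM-normalized CPM on a log axis, where dots stand for libraries, dashes for the mean of 2 libraries and open triangles for values below that of 3 counts in the shallowest library (0.215 CPM). The PRR7 dots of fry1-6 rdr6-11, at 27.9 and 17.9 CPM, lie below every other library, while the LHY dots of fry1-6 rdr6-11 and fry1-6 overlap.

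Clock MYB factors such as CCA1 and RVE8 bind the evening element, AAAATATCT, in the promoters of evening genes. The windows read here ran from 250 bases before to 50 bases after each gene start in TAIR10.1, on both strands. The evening element stood in 54 of 662 windows of the lower genes (8.16%), in 6 of 353 of the higher genes (1.70%) and in 2.83% of all 22605. A related CCA1-binding site, AAAAATCT, stood in 9.97% of windows of the lower genes, 7.08% of the higher and 7.77% of all, and the G-box CACGTG in 11.2%, 9.35% and 8.10%. None of these 3 motifs contains another. Of the 22 clock genes 6 had an evening element, 4 of them among the 9 that were lower. The G-box stood in 10 of the 22, 5 of them among the 9, and the CCA1-binding site in 2 and 1. None of the 21 lower photosynthesis genes described below had an evening element. Of these 21, 6 had a G-box and 5 a CCA1-binding site, where 12 and 6 of all 44 photosynthesis genes tested had them. Of 25 B-box genes tested 5 had an evening element, BBX24 alone among the 6 that were lower, and of 7 PIF genes 0 had it. The matches in the 4 lower clock genes and in BBX24 are shown with 9 bases on each side, from the TAIR10.1 genome. Each is read on the strand of its gene, with the element or its reverse complement in capitals. A match is a description of the sequence and not a measured binding site.
PRR5 (chr5:8358716-8358742, minus strand): attttttctAGATATTTTcttttctcc
PRR9 (chr2:19232624-19232650, plus strand, after the gene start): tctctgagaAGATATTTTcgtggttgt
LUX (chr3:17182980-17183006, plus strand): agaagatctAAAATATCTagctaactc
FKF1, upstream match (chr1:25508444-25508470, plus strand): gagtaggctAGATATTTTctcggaata
FKF1, match at the gene start (chr1:25508630-25508656, plus strand): actaagccaAGATATTTTaaaagttta
BBX24 (chr1:1830018-1830044, minus strand): aatataataAAAATATCTaaaggtagg

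Nuclear genes for the light-harvesting antenna and photosystem I were lower in fry1-6 rdr6-11. The antenna proteins (LHCA for photosystem I, LHCB for photosystem II) bind chlorophyll and pass on light energy. Of 44 nuclear photosynthesis genes, 21 were lower (47.7%, against 2.94% of all nuclear genes) and 0 higher, with a median log2 fold change of −1.13. At an unadjusted p under 0.05, 35 were lower and 0 higher, and DESeq2 called 34 lower and 0 higher. Without replicate 1 or 2 of fry1-6 rdr6-11, 0 were called, and without replicate 1 or 2 of fry1-6, 4 and 8 were. In a seedling extract, fewer cells of a type and less RNA per cell cannot be told apart. The chloroplast share of counts also differed, at 2.47% and 2.29% in fry1-6 rdr6-11 against 0.173% and 0.0509% in fry1-6. Its part in the photosynthesis difference was not tested. The 44 genes summed to 75400 and 62080 CPM in fry1-6 rdr6-11, 157900 and 127300 CPM in fry1-6, and 183300 and 168600 CPM in fry1-6 rdr1-1. Against fry1-6 rdr1-1, whose chloroplast shares were 2.80% and 2.40%, 18 of the 44 were lower (1.01% of all nuclear genes) and 0 higher, with a median of −1.32.

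LHCB2.2 (AT2G05070) had 39.9 and 23.1 CPM in fry1-6 rdr6-11, against 2525 and 1688 CPM in fry1-6, 66.9-fold lower (log2 −6.06 ± 0.59 SE, edgeR adjusted p = 0.00784), and 3582 and 2437 CPM in fry1-6 rdr1-1. LHCB2.1 (AT2G05100) had 52.6 and 41.3 CPM, against 2889.8 and 1711 CPM, 49.0-fold lower (edgeR adjusted p = 0.00647). These genes encode near-identical proteins of the mobile antenna, and a read that fits several places was given 1 position, so how counts divide between them is uncertain. The related LHCB2.3 (AT3G27690), which was not in the list but is among the largest decreases, had 13.4 and 9.19 CPM, against 542 and 326 CPM (edgeR adjusted p = 0.0111). LHCB3 (AT5G54270), a subunit of the outer antenna, had 176 and 116 CPM, against 2811 and 2042 CPM, 16.6-fold lower (log2 −4.05 ± 0.47, edgeR adjusted p = 0.0137). LHCB4.2 (AT3G08940), of the inner antenna, had 182 and 138 CPM, against 2060.4 and 1907 CPM, 12.4-fold lower (log2 −3.63 ± 0.31, edgeR adjusted p = 0.00581). All 5 genes were lower in each library of fry1-6 rdr6-11 than in every library of the other 3 genotypes. The paralogue LHCB4.1 (AT5G01530) was only 2.27-fold lower, with 2511 and 2237 CPM against 5437 and 5335 CPM (edgeR adjusted p = 0.0335). LHCB6 (AT1G15820), which links the inner and outer antenna, had 668 and 498 CPM, against 4613 and 3828 CPM, 7.24-fold lower (edgeR adjusted p = 0.0147).

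The LHCB1 genes encode the most abundant antenna protein and are near-identical copies, so their separate counts are uncertain. LHCB1.1, LHCB1.2, LHCB1.4 and LHCB1.5 were lower, with log2 fold changes between −2.76 and −2.06. LHCB1.3 (AT1G29930), the most expressed of them, had 5782 and 4782 CPM in fry1-6 rdr6-11, against 17039.7 and 13815 CPM in fry1-6, and just missed the threshold (log2 −1.55 ± 0.33, edgeR adjusted p = 0.0514). LHCB1.5 overlaps AT2G08665 in the annotation, and the reads over both cannot be told apart.

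Around photosystem I, LHCA4 (AT3G47470) had 861 and 613 CPM in fry1-6 rdr6-11, against 5671 and 4723 CPM in fry1-6, 7.05-fold lower (edgeR adjusted p = 0.0114). LHCA1 (AT3G54890), its partner in the antenna, had 890.2 and 671 CPM, against 4774 and 4066 CPM, 5.66-fold lower (edgeR adjusted p = 0.0114). PSAO (AT1G08380), a small subunit at the docking side of the antenna, had 669 and 523 CPM, against 3464 and 3335 CPM, 5.70-fold lower (edgeR adjusted p = 0.00601). PSAO had 1921 and 2067 CPM in fry1-6 rdr1-1, so that fry1-6 rdr1-1 lay between both, with log2 −1.74 and an edgeR adjusted p of 0.0293 for fry1-6 rdr6-11 over it. PSAD2 (AT1G03130), a subunit of the ferredoxin side, had 169 and 108 CPM, against 962 and 674 CPM in fry1-6 (edgeR adjusted p = 0.0249). PSAN (AT5G64040) had 649.7 and 485 CPM, against 1487 and 1448 CPM (edgeR adjusted p = 0.0249).

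The genes of carbon fixation on the list, 4 for the small subunit of Rubisco and RCA, were not called. RBCS1A (AT1G67090), the main small subunit of Rubisco, had 15243 and 13332 CPM in fry1-6 rdr6-11, against 12290.2 and 8852 CPM in fry1-6 (log2 0.43 ± 0.30, edgeR adjusted p = 0.418). The 3 of the 44 genes with a positive value all encode this subunit. RCA (AT2G39730), which activates Rubisco, had 3716 and 3359 CPM, against 7235 and 5454 CPM, and was not called (edgeR adjusted p = 0.135). Whether the antenna and Rubisco genes differ in their change was not tested.

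**Figure D3:**
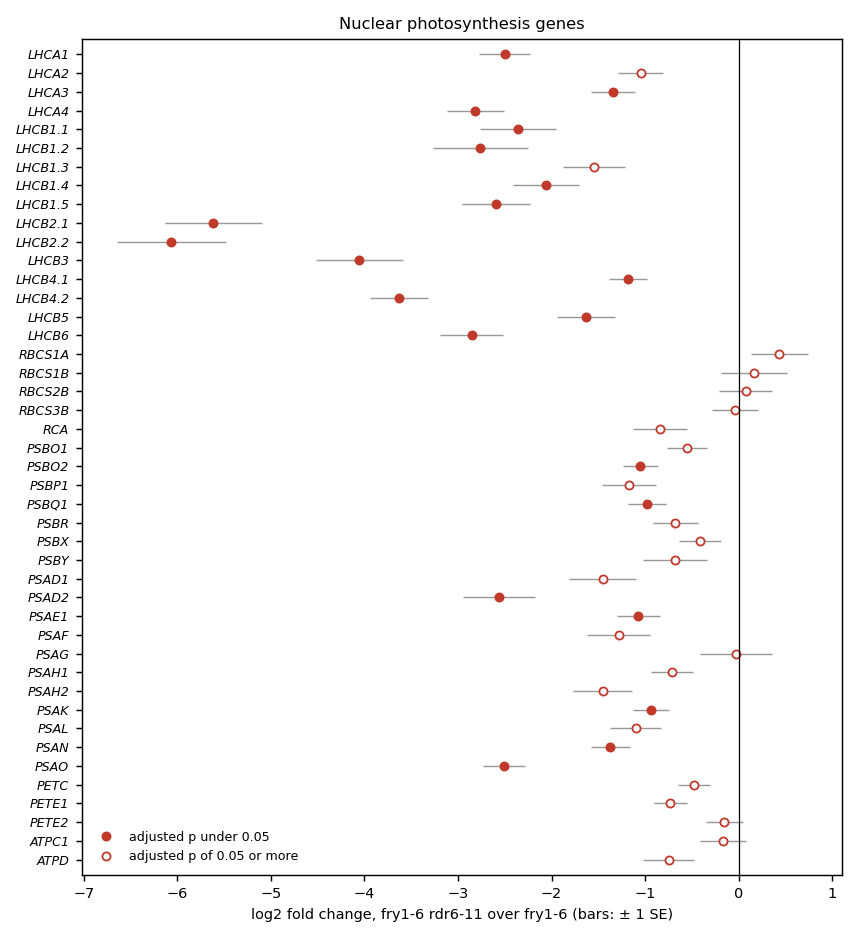
Log2 fold change of fry1-6 rdr6-11 over fry1-6 for the 44 nuclear photosynthesis genes, with bars of ± 1 SE and filled symbols for an edgeR adjusted p under 0.05. LHCB2.2 lies lowest at −6.06, the 21 filled symbols are all negative, and RBCS1A lies highest at 0.43.

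Chlorophyll synthesis, B-box and PIF genes were looked at after the values of single genes had been seen, so their counts are descriptions. Of 17 chlorophyll synthesis genes 4 were lower (23.5%, against 2.94% of all nuclear genes) and 0 higher, and 15 had a negative value, where 9 were lower and 0 higher at an unadjusted p under 0.05, and 7 and 0 by DESeq2. CAO (AT1G44446), which makes chlorophyll b for the antenna, had 16.9 and 17.5 CPM in fry1-6 rdr6-11, against 216 and 163 CPM in fry1-6, 11.0-fold lower (log2 −3.46 ± 0.42, edgeR adjusted p = 0.0150). CHLH (AT5G13630, GUN5), the large subunit of magnesium chelatase, had 488 and 463 CPM, against 3183 and 1937 CPM, 5.39-fold lower (edgeR adjusted p = 0.0267). CRD1 (AT3G56940), of the next cyclase step, had 323 and 309 CPM, against 1181 and 924 CPM (edgeR adjusted p = 0.0323). HEMA1 (AT1G58290), of the first committed step, had 161 and 174 CPM, against 446 and 456 CPM (edgeR adjusted p = 0.0441). PORB (AT4G27440), which reduces protochlorophyllide in the light, had 230.5 and 219 CPM, against 797 and 658 CPM in fry1-6 (edgeR adjusted p = 0.0589) and 1471 and 1194 CPM in fry1-6 rdr1-1 (edgeR adjusted p = 0.0457). Against fry1-6 rdr1-1, 5 of the 17 were lower and 0 higher, where 1.01% of all nuclear genes were lower and 0.102% higher.

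B-box proteins are zinc finger factors of light and flowering responses. Of 25 tested, 6 were lower (24.0%, against 2.94% of all nuclear genes) and 0 higher, where 10 were lower and 2 higher at an unadjusted p under 0.05, and 7 and 1 by DESeq2. LZF1 (AT1G78600, BBX22), a positive factor of greening, had 15.9 and 12.8 CPM in fry1-6 rdr6-11, against 71.8 and 74.3 CPM in fry1-6, 5.09-fold lower (log2 −2.35 ± 0.16, edgeR adjusted p = 0.00272). In fry1-6 rdr1-1 it had 61.7 and 66.2 CPM and in WT 68.9 and 65.5 CPM, so the other 6 libraries lay within a narrow range. BBX6 (AT5G57660, COL5) had 18.1 and 16.0 CPM, against 179 and 283 CPM, 13.5-fold lower (edgeR adjusted p = 0.00584). BBX24 (AT1G06040, STO), a negative factor of light signalling, had 17.9 and 15.1 CPM, against 168 and 98.5 CPM, 8.04-fold lower (edgeR adjusted p = 0.0163). BBX28 (AT4G27310) had 7 and 12 counts in fry1-6 rdr6-11, at 0.297 and 0.552 CPM, against 34.2 and 18.1 CPM in fry1-6 (log2 −5.93 ± 0.74, edgeR adjusted p = 0.0163). BBX18 (AT2G21320) and BBX16 (AT1G73870) were the other 2, and BBX16 had 4 and 0 counts in fry1-6 rdr6-11, too few for a fold, against 9.56 and 5.13 CPM in fry1-6.

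The phytochrome-interacting factors (PIFs) are basic helix-loop-helix factors that promote elongation growth and bind the G-box. Of 7 tested, 3 were lower (42.9%, against 2.94% of all nuclear genes) and 0 higher, at an unadjusted p under 0.05 and by DESeq2 as well. PIF4 (AT2G43010) had 8.63 and 6.39 CPM in fry1-6 rdr6-11, against 137 and 116 CPM in fry1-6, 16.8-fold lower (log2 −4.07 ± 0.31, edgeR adjusted p = 0.00419). PIF5 (AT3G59060) had 16.4 and 14.1 CPM, against 124 and 150.1 CPM, 8.97-fold lower (edgeR adjusted p = 0.00419). PIF4 and PIF5 are transcribed under control of the evening complex. PIF7 (AT5G61270), known from shade avoidance, had 9.31 and 7.13 CPM, against 29.8 and 27.0 CPM, 3.45-fold lower (edgeR adjusted p = 0.0157). PIF3 (AT1G09530) had 24.5 and 31.3 CPM, against 19.98 and 18.9 CPM, and was not called (edgeR adjusted p = 0.423). Against fry1-6 rdr1-1 the same 3 were called, with log2 fold changes of −4.49 for PIF4, −3.74 for PIF5 and −1.76 for PIF7. In that comparison 1.01% of all nuclear genes were lower.

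Among called genes of at least 2 in average log2 CPM whose genotypes did not overlap, the 10 largest decreases were BBX16, LHCB2.2, CIPK20, BBX28, AT3G08405, LHCB2.1, LHCB2.3, PRR9, AT5G54585 and AT1G15830. BBX16 comes first only by a fitted value over 4 and 0 counts, which depends on the prior count and ran from −10.1 to −5.42 (log2) when libraries were left out in turn, so its place in this order is not firm. CIPK20 (AT5G45820), a protein kinase that calcium sensors activate, had 15 and 6 counts in fry1-6 rdr6-11, at 0.637 and 0.276 CPM, against 32.1 and 26.3 CPM in fry1-6. Its log2 fold change of −5.97 ± 0.36 had the smallest edgeR adjusted p of all nuclear genes, 0.00158. CIPK20 had 52.1 and 41.0 CPM in fry1-6 rdr1-1 and 8.44 and 9.14 CPM in WT. AT3G08405, a long noncoding RNA that overlaps LNK2, had 12 and 2 counts in fry1-6 rdr6-11, against 16.1 and 15.2 CPM in fry1-6, and its reads cannot be told apart from those of LNK2 unless the counting used strand, which is not stated. AT1G15830, which encodes an uncharacterized protein, had 1.32 and 0.873 CPM, against 22.1 and 42.9 CPM, 29.4-fold lower (edgeR adjusted p = 0.00556). AT5G54585, also uncharacterized, had 6 and 11 counts, at 0.255 and 0.506 CPM, against 17.2 and 6.76 CPM (edgeR adjusted p = 0.0259).

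Increases were smaller. EXPA16 (AT3G55500), an expansin that loosens cell walls, had 19.97 and 28.5 CPM in fry1-6 rdr6-11, against 1.47 and 3.96 CPM in fry1-6, 8.89-fold higher (log2 3.15 ± 0.57, edgeR adjusted p = 0.0370). AT1G43910, a P-loop nucleoside triphosphate hydrolase, had 37.2 and 26.9 CPM, against 2.00 and 5.65 CPM, 8.35-fold higher (edgeR adjusted p = 0.0371). AT5G57760 had 10.8 and 11.9 CPM, against 1.203 and 1.56 CPM, 8.16-fold higher (log2 3.03 ± 0.26, edgeR adjusted p = 0.00580). It overlaps AT5G57770, an auxin canalization protein gene with nearly the same values, so these may be 1 signal counted for both genes. AT1G56150, of the SAUR family of small auxin-induced proteins, had 17.2 and 14.8 CPM, against 1.34 and 2.99 CPM, 7.37-fold higher (edgeR adjusted p = 0.0210). The lipase-family gene AT1G28660 had 34.3 and 31.3 CPM, against 4.14 and 6.30 CPM, 6.27-fold higher (edgeR adjusted p = 0.0141), and the beta-glucosidase BGLU22 (AT1G66280) had 19.2 and 15.6 CPM, against 3.81 and 1.69 CPM (edgeR adjusted p = 0.0432). CRF11 (AT3G25890), of the ERF family of transcription factors, had 48.8 and 60.5 CPM, against 9.76 and 12.4 CPM (edgeR adjusted p = 0.0289). CML41 (AT3G50770), a calmodulin-like calcium sensor, had 15.6 and 12.7 CPM, against 2.41 and 3.12 CPM (edgeR adjusted p = 0.0390). NAC041 (AT2G33480), a NAC transcription factor, had 19.7 and 27.4 CPM, against 5.75 and 3.96 CPM (edgeR adjusted p = 0.0178). Of these 10 genes AT5G57760, AT5G57770, CML41 and NAC041 were also higher than in fry1-6 rdr1-1, where CML41 had 1.44 and 1.37 CPM and NAC041 5.74 and 3.92 CPM.

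**Figure D4:**
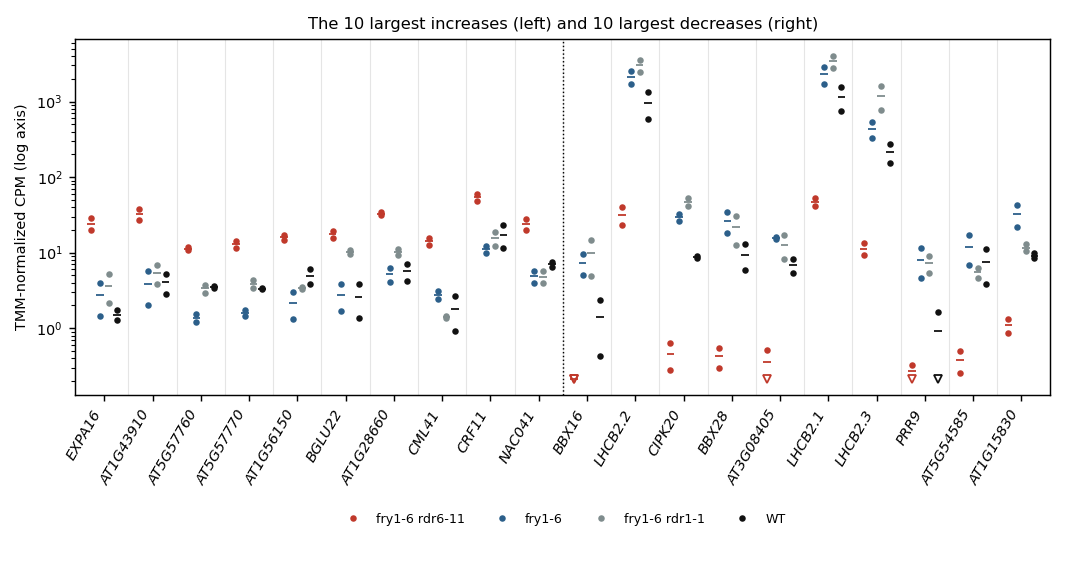
Levels in each library of the 10 largest increases (left) and 10 largest decreases (right), in TMM-normalized CPM on a log axis, where dots stand for libraries, dashes for the mean of 2 libraries and open triangles for values below that of 3 counts in the shallowest library (0.215 CPM). CIPK20 had 0.637 and 0.276 CPM in fry1-6 rdr6-11, far below all other libraries, and NAC041, at 19.7 and 27.4 CPM, lies above them.

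Of the 23 genes higher than in fry1-6 rdr1-1, 3 more that were also higher than in fry1-6 are named here for their known hormone or membrane roles, chosen after their values were seen. RCAR3 (AT5G53160), an abscisic acid receptor, had 183 and 162 CPM in fry1-6 rdr6-11, against 74.2 and 86.7 CPM in fry1-6 and 70.3 and 56.9 CPM in fry1-6 rdr1-1 (edgeR adjusted p = 0.0332 and 0.0312). ETR2 (AT3G23150), an ethylene receptor, had 15.1 and 15.6 CPM, against 7.22 and 5.52 CPM in fry1-6 and 6.39 and 5.86 CPM in fry1-6 rdr1-1 (edgeR adjusted p = 0.0294 and 0.0457). HA11 (AT5G62670), a plasma membrane proton pump, had 105 and 121 CPM, against 44.6 and 42.7 CPM in fry1-6 and 49.6 and 57.4 CPM in fry1-6 rdr1-1 (edgeR adjusted p = 0.0163 and 0.0467). HA11 had 113 and 92.2 CPM in WT, whereas RCAR3 had 60.4 and 73.2 CPM and ETR2 8.44 and 6.81 CPM there.

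Because FRY1 acts in sulfur metabolism and in drought responses, those lists were described next. Of 22 tested sulfur genes 3 were lower (13.6%, against 2.94% of all nuclear genes) and 0 higher, with a median log2 fold change of −0.84. At an unadjusted p under 0.05, 9 were lower and 1 higher, and DESeq2 called 7 lower and 0 higher. SHM7 (AT1G36370), a sulfur-starvation marker, had 22.4 and 16.4 CPM in fry1-6 rdr6-11, against 51.9 and 110.1 CPM in fry1-6 (edgeR adjusted p = 0.0353) and 152 and 191 CPM in fry1-6 rdr1-1 (edgeR adjusted p = 0.0290). APR1 (AT4G04610), which reduces activated sulfate, had 26.7 and 43.1 CPM, against 104 and 92.3 CPM, 2.81-fold lower (edgeR adjusted p = 0.0481). AT1G04770 (SDI2), of the family induced by sulfur deficiency, had 4.25 and 5.15 CPM, against 24.1 and 27.2 CPM, 5.45-fold lower (edgeR adjusted p = 0.0420). Of 28 osmotic stress and abscisic acid genes, RAB18 alone was called (3.57% lower, near the 2.94% of all nuclear genes). RAB18 (AT5G66400), a dehydrin, had 21.9 and 14.7 CPM, against 116 and 127 CPM, 6.63-fold lower (log2 −2.73 ± 0.35, edgeR adjusted p = 0.0165), with 60.3 and 117 CPM in fry1-6 rdr1-1. The other 27 were not called, 26 of the 28 had a negative value and the median was −1.39, where 11 were lower and 0 higher at an unadjusted p under 0.05 and by DESeq2. P5CS1 (AT2G39800), of proline synthesis, had 59.96 and 80.4 CPM, against 375 and 243 CPM (edgeR adjusted p = 0.0614).

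Resistance genes of the NBS-LRR class are immune receptors often held in tandem clusters. Of 131 tested, 7 were lower (5.34%, against 2.94% of all nuclear genes) and 0 higher, with a median log2 fold change of −0.16. At an unadjusted p under 0.05, 18 were lower and 5 higher, where 3000 and 2635 of all 22606 nuclear genes were. DESeq2 called 14 lower and 0 higher, where it called 1785 and 897 of all nuclear genes. RPP4 (AT4G16860) had 43.9 and 48.6 CPM in fry1-6 rdr6-11, against 176 and 177 CPM in fry1-6, 3.81-fold lower (log2 −1.93 ± 0.20, edgeR adjusted p = 0.01002). RPP5 (AT4G16950) had 92.4 and 106 CPM, against 316 and 254 CPM (edgeR adjusted p = 0.0174), and SNC1 (AT4G16890) had 185 and 183 CPM, against 398 and 396 CPM (edgeR adjusted p = 0.0358). These 3 lie in 1 cluster of near-identical copies that is known to be regulated by small RNAs, so reads may be split between them and their counts are uncertain. RPP1 (AT3G44480) and AT3G44670, of another cluster, were 1.92-fold and 2.27-fold lower (edgeR adjusted p = 0.0261 and 0.0311), and the same doubt holds. Of 28 salicylic acid and defence genes, RPP4 and SNC1 were lower (7.14%) and 0 were higher, and at an unadjusted p under 0.05, 4 were lower and 2 higher. PR1 (AT2G14610), the salicylic acid marker, had 41.6 and 16.6 CPM, against 1.47 and 0.650 CPM, but also 37.8 and 0.0404 CPM in fry1-6 rdr1-1, and its edgeR adjusted p was 0.190. In jasmonate genes 0 of 22 were called in either direction, where 3 were lower and 1 higher at an unadjusted p under 0.05 and DESeq2 called 2 lower.

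Among 20 tested early auxin genes, IAA14 (AT4G14550) was the single called member (5% lower, against 2.94% of all nuclear genes). IAA14 is a repressor of auxin response known from lateral root initiation. It had 5.82 and 5.75 CPM in fry1-6 rdr6-11, against 14.97 and 15.4 CPM in fry1-6, 2.62-fold lower (log2 −1.39 ± 0.17, edgeR adjusted p = 0.0163), and 16.5 and 18.3 CPM in fry1-6 rdr1-1. The median of the 20 was −1.10, and 5 were lower and 0 higher at an unadjusted p under 0.05 and by DESeq2. Of all 22606 nuclear genes, 3000 were lower at that unadjusted p and 1785 by DESeq2. Of 58 tested targets of other conserved miRNAs, 2 were higher (3.45%) and 1 lower (1.72%), near the 1.56% higher and 2.94% lower of all nuclear genes, with a median of 0.05. HAM1 (AT2G45160), a GRAS factor of shoot meristems that miR171 targets, had 198 and 217 CPM, against 121 and 122 CPM in fry1-6, 188 and 176 CPM in fry1-6 rdr1-1, and 33.9 and 35.6 CPM in WT (edgeR adjusted p = 0.0390 over fry1-6). NF-YA1 (AT5G12840), a miR169 target, had 13.3 and 14.1 CPM, against 25.8 and 22.03 CPM (edgeR adjusted p = 0.0393). ORE1 (AT5G39610, NAC6), a miR164 target that promotes senescence, had 16.3 and 13.7 CPM, against 3.47 and 6.04 CPM (edgeR adjusted p = 0.0499). It is also the single called member of 9 tested senescence markers (11.1% higher, against 1.56% of all nuclear genes). Their median log2 fold change was 0.02. At an unadjusted p under 0.05, 1 of these 9 was higher and 2 lower, and DESeq2 called 1 higher and 1 lower. None of the 10 tested SPL genes, the miR156 targets, was called in either direction, where 3 were lower and 0 higher at an unadjusted p under 0.05 and DESeq2 called 1 lower.

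The study lists 200 genes with more 21-nt small RNAs in fry1-6, of which 177 were tested here. The study chose the list on small RNA of fry1-6 against WT. It was taken up here with earlier results of these data known, so its counts are no independent evidence of a direction. Of the 177, 19 were lower (10.7%, against 2.94% of all nuclear genes) and 4 higher (2.26%, against 1.56%), and the median log2 fold change was −0.06. Several of the 19 belong to the groups above, among them CIPK20, FKF1, BBX16, LHCB2.2 and LHCB3. Others had values near those of fry1-6 rdr1-1, and of these MEE38, CCR1 and NF-YB3 were chosen after their values were seen. AT5G10340, a gene without a symbol in the reference, had 6.76 and 4.37 CPM in fry1-6 rdr6-11, against 75.7 and 45.8 CPM in fry1-6, 10.9-fold lower (log2 −3.45 ± 0.35, edgeR adjusted p = 0.00895). It had 4.58 and 3.27 CPM in fry1-6 rdr1-1 and 0.143 and 0.123 CPM in WT, from 2 counts in each WT library. Thus fry1-6 was highest, and both double mutants lay below it but above WT. PDX1L4 (AT2G38210), named for vitamin B6 synthesis, had 3.99 and 3.86 CPM, against 31.8 and 25.6 CPM (edgeR adjusted p = 0.00784), 4.399 and 6.22 CPM in fry1-6 rdr1-1, and 27.5 and 40.6 CPM in WT. MEE38 (AT3G43160) had 18 and 11 counts, at 0.765 and 0.506 CPM, against 11.8 and 7.02 CPM in fry1-6, 1.34 and 0.606 CPM in fry1-6 rdr1-1, and 0 counts in both WT libraries. CCR1 (AT4G39260), a glycine-rich RNA-binding protein gene with a daily rhythm, had 91.2 and 93.6 CPM, against 532 and 717 CPM (edgeR adjusted p = 0.0114), 118 and 197 CPM in fry1-6 rdr1-1, and 708 and 818 CPM in WT. NF-YB3 (AT4G14540), a subunit of a CCAAT-binding factor, had 35.4 and 30.4 CPM, against 61.3 and 64.1 CPM (edgeR adjusted p = 0.0256), and 29.8 and 29.7 CPM in fry1-6 rdr1-1. For AT5G10340, PDX1L4, MEE38, CCR1 and NF-YB3 the edgeR adjusted p of fry1-6 rdr6-11 over fry1-6 rdr1-1 lay between 0.252 and 0.664. These p-values are no test of likeness, since MEE38, CCR1 and NF-YB3 were picked for values near fry1-6 rdr1-1. A missed call does not show that 2 genotypes are alike.

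The 4 higher members were AT1G10160, AGP9, ADC2 and bZIP7. AT1G10160, a pseudogene, had 31.4 and 36.3 CPM in fry1-6 rdr6-11, against 20.8 and 17.9 CPM in fry1-6 and 14.6 and 13.5 CPM in fry1-6 rdr1-1 (edgeR adjusted p = 0.0489 and 0.0312). ADC2 (AT4G34710), of polyamine synthesis, had 359 and 370.5 CPM, against 179 and 176 CPM (edgeR adjusted p = 0.0441). AGP9 (AT2G14890), an arabinogalactan protein of the cell wall, had 86.4 and 66.8 CPM, against 39.96 and 36.3 CPM (edgeR adjusted p = 0.0464), and bZIP7 (AT4G37730) had 2.63 and 2.71 CPM, against 0.802 and 0.780 CPM (edgeR adjusted p = 0.0435). AGP9, ADC2 and bZIP7 were not called against fry1-6 rdr1-1.

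**Figure D5:**
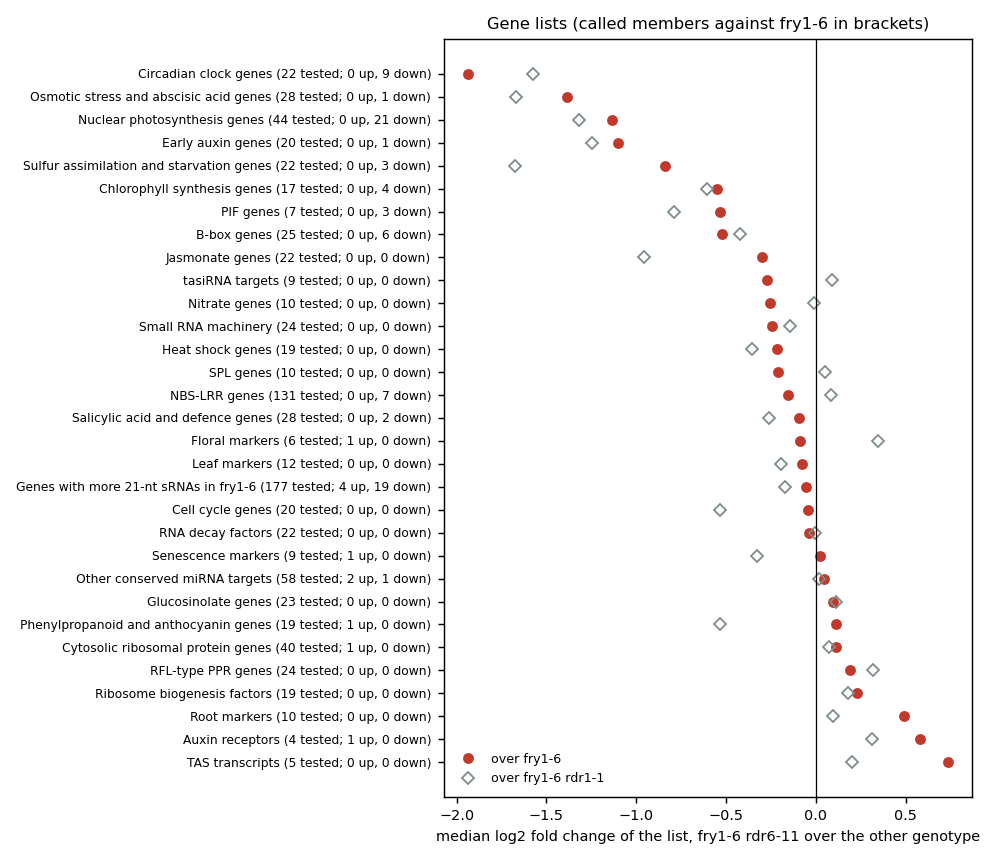
Median log2 fold change of each gene list for fry1-6 rdr6-11 over fry1-6 (filled circles) and over fry1-6 rdr1-1 (open diamonds), both of which share the fry1-6 rdr6-11 libraries. The clock list lies lowest over fry1-6 at −1.94, and the lists of RNA decay factors and cell cycle genes lie near 0 there, each at −0.04. Over fry1-6 rdr1-1 the clock list, at −1.57, is not the lowest. The sulfur list lies at −1.68 and the osmotic stress and abscisic acid list at −1.67, and cell cycle genes lie at −0.54.

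The other lists had few calls, where 1.56% of all nuclear genes were higher and 2.94% lower. Heat shock (19 tested), glucosinolate (23), nitrate (10) and cell cycle genes (20) had 0 calls in either direction. At an unadjusted p under 0.05 the counts higher and lower were 2 and 3 for heat shock, 1 and 0 for glucosinolate, 1 and 2 for nitrate and 3 and 2 for cell cycle genes, and DESeq2 called 2, 0, 1 and 1 of them, all lower. In the phenylpropanoid list DFR (AT5G42800), of anthocyanin synthesis, was the single called member of 19, with 8.24 and 7.08 CPM in fry1-6 rdr6-11, against 1.74 and 1.56 CPM in fry1-6 (edgeR adjusted p = 0.0474) and 8.15 and 9.41 CPM in fry1-6 rdr1-1. Of 6 tested floral markers FUL (AT5G60910, AGL8) was higher, with 1.49 and 1.93 CPM, against 0.601 and 0.390 CPM (edgeR adjusted p = 0.0483), while the sum over these markers was 47.4 and 45.4 CPM, against 53.9 and 57.3 CPM. Of 40 genes taken by product name as cytosolic ribosomal proteins, only RPS2 (AT3G03600) was called, with 13.0 and 12.5 CPM, against 7.22 and 7.28 CPM (edgeR adjusted p = 0.0406), and it encodes a protein of the mitochondrial ribosome that the words used let in.

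By gene class, protein-coding genes had 615 lower and 312 higher of 20680 tested, and long noncoding RNAs 34 lower and 26 higher of 1196. Of 76 antisense RNAs 7 were higher (9.21%) and 2 lower (2.63%), where 1.56% and 2.94% of all nuclear genes were, and since strand use in the counting is not stated, reads of an antisense RNA and its partner cannot be told apart. Pseudogenes had 9 lower and 2 higher of 198. Of the 1017 genes called, 110 overlap another called gene in the annotation, so the counts of called genes include some signals counted for both partners.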

How the data were processed

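RNA-seq of seedlings of 4 genotypes, in 2 libraries each, was used. Per the labels and the paper's methods, the authors mapped reads to Araport11 with STAR 2.6, placed each read with up to 50 possible positions at 1 position, and ran featureCounts 1.6.4 to count reads per gene. The tables they deposited hold raw counts per gene with no normalization. The kit is TruSeq in the labels and another in the paper, and strand use in counting is not given in the sources used here.

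Here edgeR's filterByExpr was applied (count at least 10, total at least 15), and libraries were scaled by TMM and fitted by genotype over all 8 libraries with the quasi-likelihood test (edgeR 4.0.16, limma 3.58.1, R 4.3.3). The fit covered 22744 genes with 4 residual degrees of freedom and a common dispersion of 0.0727, and p-values were Benjamini-Hochberg adjusted over them, two-sided, with a threshold of 0.05. The contrasts were fry1-6 rdr6-11 over fry1-6 and over fry1-6 rdr1-1. CPM values are TMM-normalized and a fold change is the edgeR estimate. Each SE is the absolute log2 fold change over the square root of the test's F statistic. It therefore restates the test and is no separate measure of spread. The comparison, its members and all lists were chosen with earlier results of these data known, and the B-box, PIF and chlorophyll synthesis lists after the values here were seen. Named genes are the mutated genes, the 8 TAS loci, the 10 largest increases and 10 largest decreases (called, at least 2 in average log2 CPM, genotypes not overlapping), and up to 4 called members of each list by smallest adjusted p (up to 8 for 4 of the lists). Genes not called, and others named as chosen later, are given with their values. No list was put to a set test.

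Alternatives were DESeq2 1.42.0 as the test, its size factors within edgeR, total counts, 2 other filters, nuclear genes only, the 2 genotypes alone, the replicate number as a block, other thresholds and leaving out each library. The crossed block, and the leave-outs for the comparison with fry1-6 rdr1-1, were added after seeing the data. No pair of libraries agreed within sampling noise. Counts of 22491 genes were simulated for fry1-6 rdr6-11 against fry1-6, with 198 genes changed, fewer than were called in the data. There edgeR recovered 56.8% of 4-fold and 0% of 2-fold changes with 3 false calls, and DESeq2 82.1% and 20.4% with 74. Of the 37361 identifiers, 37065 (99.2%) were matched to TAIR10.1, which gave symbols, overlaps, promoter windows and miRNA sequences.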

Additional observations from a re-analysis of the deposited data

Results flagged for a closer look

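The chloroplast share of the counts, which lies outside the nuclear genes compared, was 2.47% (95% Wilson interval 2.47% to 2.48%) in replicate 1 and 2.29% (2.28% to 2.29%) in replicate 2 of fry1-6 rdr6-11, above the 0.161% and 0.0342% of the WT libraries. It was 0.173% and 0.0509% in fry1-6. The fry1-6 rdr1-1 libraries were at 2.80% and 2.40%. The part of this share in the nuclear differences was not tested.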

How the results depend on the processing

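Counts of called nuclear genes depended on the setting. Over fry1-6 (353 higher, 664 lower), DESeq2 called 897 higher and 1785 lower, total counts gave 1441 and 491, an adjusted p under 0.01 gave 5 and 35, and at least 2-fold 204 and 505. Over fry1-6 rdr1-1 (23 higher, 228 lower), DESeq2 called 242 and 1022, total counts gave 41 and 100, the 2 genotypes alone 262 and 854, and an adjusted p under 0.01 gave 0 and 0, where 1473 and 2240 had an unadjusted p under 0.05. Leaving out 1 library gave between 0 and 7 higher and between 3 and 73 lower over fry1-6, and between 0 and 1 higher and between 0 and 27 lower over fry1-6 rdr1-1. A genotype left with 1 library is assumed there to vary like the others. Size factors of DESeq2, the other filters and nuclear genes alone kept both counts of each comparison within 1.5 times.

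Same-numbered libraries of fry1-6 rdr6-11 and fry1-6 did not deviate together (r = −0.191 across genes), so the numbers were not taken to pair them. The same correlation was 0.182 between the double mutants and 0.663 between fry1-6 and WT, and negative in the other 3 pairs of genotypes. With the replicate block 132 were higher and 364 lower over fry1-6, and 12 higher and 163 lower over fry1-6 rdr1-1. With the crossed block 892 were higher and 1476 lower over fry1-6.

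Of the 112 genes named with values, 107 kept direction and call with nuclear genes only, 99 with the 2 genotypes alone and 90 with the replicate block, and 78 lost their call without replicate 1, and 78 without replicate 2, of fry1-6 rdr6-11. None of the called genes among them reversed under these alternatives. With total counts the log2 fold changes turned positive for RDR6 (0.022), TAS1B (0.16), ARF2 (0.10) and LHY (0.0945). Leaving out 1 library turned the sign of 7 genes that were not called, with ranges of −0.31 to 0.60 for FRY1 (SAL1), −0.72 to 0.066 for RDR6, −0.48 to 0.39 for TAS1B, −0.13 to 1.23 for TAS1C, −0.046 to 1.23 for TAS2, −0.0797 to 1.07 for ARF4 and −0.37 to 0.064 for LHY. The causes were not tested. In the simulated counts few 2-fold changes were recovered, but only 198 genes were changed there, against 1017 called in the data. Of the 353 genes called higher in the data 204 were at least 2-fold, and of the 664 lower 505. Smaller changes were thus called here, and the simulation does not give their recovery.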
